A study of Rattus norvegicus with 16 samples.

Results

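The urothelial and squamous lineage markers are 10 genes chosen by name, with earlier results of these data known. They ask which stratified epithelium appears in the colon of rats sampled 36 days after a chemical injury. Of the 10 genes, 8 had a matched probe, 13 probes in all, among 15159 gene symbols matched on the array. Psca and Grhl3 had no matched probe and were not analysed here. The colon is lined by a simple columnar epithelium, in which every cell touches the basement membrane. Stratified epithelia instead keep a dividing basal layer and build maturing layers above it: urothelium, in the bladder and ureter, ends in umbrella cells plated with uroplakins, and squamous epithelium, in skin, oesophagus and anal canal, ends in flattened cells filled with keratins. The transcription factor p63, made from Trp63, marks the basal layer of both, so the lineage is read from the genes made above that layer.

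RNA of normal distal colon from 16 male (ACIxF344)F1 rats, aged 97 days, was hybridised to one-colour Agilent arrays, 1 array for each rat. The rats fell into 4 groups of 4. Pirc rats carry 1 mutant copy of the tumour suppressor Apc (Pirc/+) and develop colon tumours, and wildtype rats carry none. Treated rats drank 4% dextran sulfate sodium (DSS), a polymer that injures the colon lining, on days 40 to 47 and again on days 54 to 61, and were sampled 36 days after the last dose. Untreated rats of the same ages had no DSS. The untreated wildtype rats were numbers 13, 17, 21 and 25, and the DSS-treated wildtype rats were 14, 18, 22 and 26. The untreated Pirc rats were numbers 11, 15, 19 and 23, and the DSS-treated Pirc rats were 12, 16, 20 and 24. Values below follow these orders. The study's methods describe the samples of untreated animals as epithelium scraped from the luminal side, away from tumours, so a sample is a mixture of cells.

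A level here is the log2 of a probe's background-corrected signal minus the log2 of the array's 75th percentile, so that 0 stands at that percentile and each unit is a doubling. The median 75th percentile was 1387 signal units in untreated wildtype, 1222 in DSS-treated wildtype, 1980 in untreated Pirc and 1580 in DSS-treated Pirc rats. Between 71.1 and 80.3% of an array's spots stood well above background, the scanner software's own mark for a signal that can be told from background, and 0 were saturated. The arrays lay on 2 slides with 2 rats of each group on each, but each group kept to 1 column, and an effect of column cannot be told apart from an effect of group. Of 24 listed markers of colonic epithelium 22 had a probe, and all 22 were well above background on all 16 arrays. Rat 26 is named ahead of the results because, over the 7 member probes called for DSS in Pirc rats, it was the lowest of the 4 DSS-treated wildtype rats on 6. By Dixon's test for an outlier, on each member probe in each group, 0 of 52 groups held a rat standing apart. Member calls that change without it are given both ways.

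A gene is called changed where limma's adjusted p (Benjamini-Hochberg over all 30367 probes) was 0.05 or less and the change at least 2-fold. A gene with several probes is first counted by the probe that was well above background on most arrays. The comparison of DSS-treated with untreated Pirc rats asks what DSS leaves behind in the tumour-prone genotype. By limma 4 of 8 members were called higher there (Upk1a, Upk1b, Upk3a and Sox2), where 5.51% of all probes were called higher. Called lower were 0 members and 1.95% of all probes. In either direction 5 members and 8244 of the 30367 probes had an unadjusted p under 0.05. The members' median log2 change was 0.64, beside 0.04 over all probes. In wildtype rats DSS gave 0 of 8 members called by limma, where 2.37% of all probes were called higher and 0.402% lower. There 3 members and 5106 probes had an unadjusted p under 0.05. The median there was 0.13, beside 0.09. Untreated Pirc and wildtype rats, compared to show the genotype alone, had 0 members and 0% of all probes called by limma, with 1 member and 3103 probes at an unadjusted p under 0.05; the medians were -0.24 and -0.02. Among DSS-treated rats, the Pirc genotype had 3 of 8 members called higher (Upk1a, Upk3a and Sox2), where 3.1% of all probes were called higher and 2.37% lower, with medians of 0.71 and -0.11. With DSS compared over both genotypes, 2 of 8 were called higher (Upk1a and Sox2), where 5% of all probes were, with medians of 0.37 and 0.06. These comparisons share samples, so their counts are not independent. Because the members were chosen with earlier results of these data known, their counts beside the shares of all probes are a description. More RNA per cell and more cells of a type cannot be told apart in such samples.

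Trp63 makes the transcription factor p63, without which stratified epithelia do not form. It had 2 probes, and they differed. On probe A_43_P15281 untreated wildtype rats had log2 levels of -9.08, -8.44, -9.04 and -8.65, and DSS-treated wildtype rats -8.54, -4.35, -0.84 and -8.76. Untreated Pirc rats had -8.65, -9.27, -9.17 and -7.91, and DSS-treated Pirc rats -2.29, -2.21, -0.24 and -0.23. All 4 DSS-treated Pirc rats stood above all untreated rats, while among DSS-treated wildtype rats 18 and 22 were high and 14 and 26 lay among the untreated values. This probe was well above background on 0 of 8 untreated arrays, on 2 of 4 in DSS-treated wildtype and on 4 of 4 in DSS-treated Pirc rats. In Pirc rats the change with DSS was 7.51 (95% interval 4.75 to 10.27, limma adjusted p 0.00147). Each array has its own floor, the lowest level of any probe well above background on it. With untreated values below their array's own floor raised to it, the change was 166-fold. Such a fold is an estimate and not a lower limit. With other processing, or within single slides or rows, the log2 change ran from 3.57 to 8.31. In wildtype rats the fitted difference was 3.18 (limma adjusted p 0.215), and the groups overlapped. With the untreated arrays and part of the treated wildtype arrays at background, this is no exact size.

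The other Trp63 probe, A_64_P008351, was well above background on all 16 arrays and is the one counted above. Its log2 levels were 1.99, 2.02, 1.99 and 2.10 in untreated wildtype and 2.19, 2.03, 2.12 and 2.01 in DSS-treated wildtype rats. In untreated Pirc rats they were 1.84, 1.57, 1.76 and 1.97, and in DSS-treated Pirc rats 1.60, 2.24, 1.73 and 1.56. The groups overlapped under DSS in each genotype, and all 16 values lay within 0.68 of each other. The difference with DSS in Pirc rats was 0.00 (95% interval -0.31 to 0.31; limma adjusted p 0.998). With the 2 Trp63 probes averaged, the change with DSS in Pirc rats was 3.75 (limma adjusted p 0.00113). Between DSS-treated Pirc and wildtype rats the average gave a log2 difference of 2.04 (limma adjusted p 0.0398). On this probe alone it was -0.30 (limma adjusted p 0.173). Which Trp63 transcripts each probe reads was not analysed here, so whether the gene rose rests on the first probe.

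The genes with log2 levels most like each Trp63 probe were listed as a description. Over 16 arrays and 13995 probes the first probe was most like Serpinb10 (Pearson r 0.992), Wnt10a (0.991), Krt5 (0.990), Krt14 (0.987) and Rhcg (0.986). Krt5 and Krt14 are the keratin pair of basal cells. Among 12155 probes, the flat probe was most like Pspn (0.920), Jkampl (0.903), Dkkl1 (0.900), Fth1 (0.890) and Lpp (0.882). No gene stood in both lists of 5.

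Uroplakins are the membrane proteins that crystallise into plaques on umbrella cells. Upk1a, a tetraspanin of those plaques, was well above background on all 16 arrays. Its log2 levels were -3.34, -3.48, -3.65 and -3.50 in untreated wildtype and -2.63, -3.26, -3.16 and -3.70 in DSS-treated wildtype rats. Untreated Pirc rats had -3.41, -3.50, -3.74 and -3.07, and DSS-treated Pirc rats -1.50, -0.27, 1.36 and 0.44. The 4 DSS-treated Pirc rats stood above the other 12, rat 20 highest and rat 12 lowest, and the wildtype groups overlapped. In Pirc rats Upk1a rose with DSS by 3.44 (95% interval 2.51 to 4.36; limma adjusted p 0.000202), a 10.8-fold change. The difference in wildtype rats was 0.30 (limma adjusted p 0.815). Between DSS-treated Pirc and wildtype rats Upk1a was higher by 3.19 (limma adjusted p 0.000679), 9.14-fold.

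Upk1b, the tetraspanin partner in the same plaques, also had 2 probes. On A_43_P11086 the log2 levels were -4.75, -8.59, -8.76 and -6.79 in untreated wildtype and -1.71, -2.76, -1.31 and -5.94 in DSS-treated wildtype rats. In untreated Pirc rats they were -7.48, -7.10, -7.75 and -7.14, and in DSS-treated Pirc rats 0.07, 1.52, 3.06 and 2.44. The DSS-treated Pirc rats were again above all others, and in wildtype rats only 26 of the treated lay below the highest untreated rat, 13. Its signal stood well above background on all 8 DSS-treated arrays and on 2 of 4 in each untreated group. The change with DSS was 9.14 in Pirc rats (limma adjusted p 0.000113) and 4.29 in wildtype rats (limma adjusted p 0.0284). The wildtype call was lost without untreated wildtype rat 17 (adjusted p 0.0990), 21 (0.0899) or 25 (0.0574), or without DSS-treated wildtype rat 14 (0.106), 18 (0.0813) or 22 (0.0679). It was also lost with values raised to a common floor (3.61, adjusted p 0.0609), with another background correction (1.99, adjusted p 0.0945) and in a fit of those groups alone (adjusted p 0.111). Without rat 26 it was 5.30 (adjusted p 0.00354). Higher levels in DSS-treated Pirc than wildtype rats were called as well, by 4.70 (limma adjusted p 0.00671).

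The Upk1b probe counted above, A_64_P130269, was well above background on all 16 arrays and moved less. Its log2 levels were -3.23, -3.28, -3.80 and -3.96 in untreated wildtype and -3.03, -3.82, -3.03 and -4.22 in DSS-treated wildtype rats. Untreated Pirc rats had -3.92, -3.38, -3.70 and -3.66, and DSS-treated Pirc rats -3.46, -2.62, -1.68 and -2.38. Rat 12 lay among the untreated Pirc rats, and the other 3 treated Pirc rats stood above them. The change with DSS in Pirc rats was 1.13 (limma adjusted p 0.0403). That call was lost without any of the untreated Pirc rats 11, 15, 19 and 23, without DSS-treated Pirc rat 16, 20 or 24, and without untreated wildtype rat 21 (adjusted p from 0.0505 to 0.134). Quantile normalization (adjusted p 0.0673), the common floor (0.0523) and a fit of those groups alone (0.0848) lost it too, and with normexp it was under 2-fold (0.92). In wildtype rats the difference was 0.04 (limma adjusted p 0.963). Between DSS-treated Pirc and wildtype rats it was 0.99 and was not called (limma adjusted p 0.0594). It was called without rat 12 (1.30, adjusted p 0.0193).

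Upk3a makes the plaque protein that pairs with the Upk1b product. Its probe was well above background on all 16 arrays. The log2 levels were -3.88, -3.84, -4.23 and -3.91 in untreated wildtype and -3.42, -4.17, -3.89 and -3.25 in DSS-treated wildtype rats. Untreated Pirc rats had -3.75, -4.29, -4.07 and -3.78, and DSS-treated Pirc rats -2.65, -1.79, -2.18 and -2.95. Every DSS-treated Pirc rat was above the other 12 rats, with rat 16 highest and rat 24 lowest, and the wildtype groups overlapped. Upk3a rose with DSS in Pirc rats by 1.58 (limma adjusted p 0.000875), 2.98-fold, and was higher by 1.29 in DSS-treated Pirc than wildtype rats (limma adjusted p 0.00435), 2.45-fold. In wildtype rats the difference was 0.28 (limma adjusted p 0.668).

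Upk2, the partner of the Upk1a product, could not be read: its probe was well above background on none of the 16 arrays, with log2 levels from -9.55 to -8.12. Thus 3 of the 4 uroplakins listed rose with DSS in the Pirc genotype, and for the fourth a change was not detectable at this signal.

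Sox2 makes a transcription factor of the foregut's squamous epithelium, one that normal colonic epithelium does not make. On probe A_42_P778330 untreated wildtype rats had log2 levels of -7.56, -8.77, -8.78 and -7.57, and DSS-treated wildtype rats -5.77, -5.46, -2.47 and -8.71. Untreated Pirc rats had -8.57, -7.57, -9.64 and -8.15, and DSS-treated Pirc rats -2.78, -2.89, -0.46 and -0.76. All 4 DSS-treated Pirc rats were high, and of the treated wildtype rats 14, 18 and 22 stood above the untreated ones and 26 among them. Its signal stood well above background on 0 of 8 untreated arrays, 3 of 4 in DSS-treated wildtype and 4 of 4 in DSS-treated Pirc rats. The rise with DSS in Pirc rats was 6.76 (limma adjusted p 0.000521), or 95.1-fold with untreated values raised to the array's own floor. Its 95% interval ran from 4.64 to 8.87. With other processing, or within single slides or rows, the rise was as low as 3.13. In wildtype rats the fitted difference was 2.57 (limma adjusted p 0.188), and it was called without rat 26 (3.60, adjusted p 0.0209). With the untreated arrays at background, neither is an exact size.

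The Sox2 probe counted above, A_44_P506024, had log2 levels of -6.79, -7.69, -7.93 and -7.14 in untreated wildtype and -6.55, -5.34, -4.49 and -6.85 in DSS-treated wildtype rats. Untreated Pirc rats had -7.05, -7.23, -8.67 and -8.24, and DSS-treated Pirc rats -4.93, -4.55, -2.74 and -3.10. Rats 20 and 24 were the highest, the Pirc groups did not overlap, and treated wildtype rat 26 lay among the untreated. The fitted change with DSS was 3.96 in Pirc rats (limma adjusted p 0.000532) and 1.58 in wildtype rats (limma adjusted p 0.167). This probe was well above background on 3 of 8 untreated and 8 of 8 treated arrays, so neither change is an exact size. Among untreated Pirc rats it was well above background on 1 of 4 arrays.

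Klf5 makes a zinc-finger factor of dividing crypt and basal cells, and it was well above background on all 16 arrays by both of its probes. On probe A_42_P475623 the log2 levels ran from 2.98 to 4.10, and the difference with DSS was -0.34 in Pirc (limma adjusted p 0.152) and -0.47 in wildtype rats (limma adjusted p 0.0948). On this probe Klf5 fell by 0.40 over both genotypes (limma adjusted p 0.0138), less than 2-fold, so it was not called. On probe A_44_P526866 the difference with DSS was -0.28 in Pirc rats, 0.03 in wildtype rats and -0.12 over both genotypes (limma adjusted p 0.578). With the 2 Klf5 probes averaged, the difference over both genotypes was -0.26 (limma adjusted p 0.0662). Between DSS-treated Pirc and wildtype rats probe A_44_P526866 had a log2 difference of -0.65 (limma adjusted p 0.0163), again under 2-fold. Ovol1 makes a zinc-finger repressor that acts as epithelial cells leave the basal layer. Its probes changed by 0.15 (A_64_P089040, limma adjusted p 0.803) and 0.30 (A_64_P089036, adjusted p 0.124) with DSS in Pirc rats, and by -0.68 (adjusted p 0.190) and 0.07 in wildtype rats. Neither Klf5 nor Ovol1 was called in any comparison, by any of their 4 probes.

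**Figure D1:**
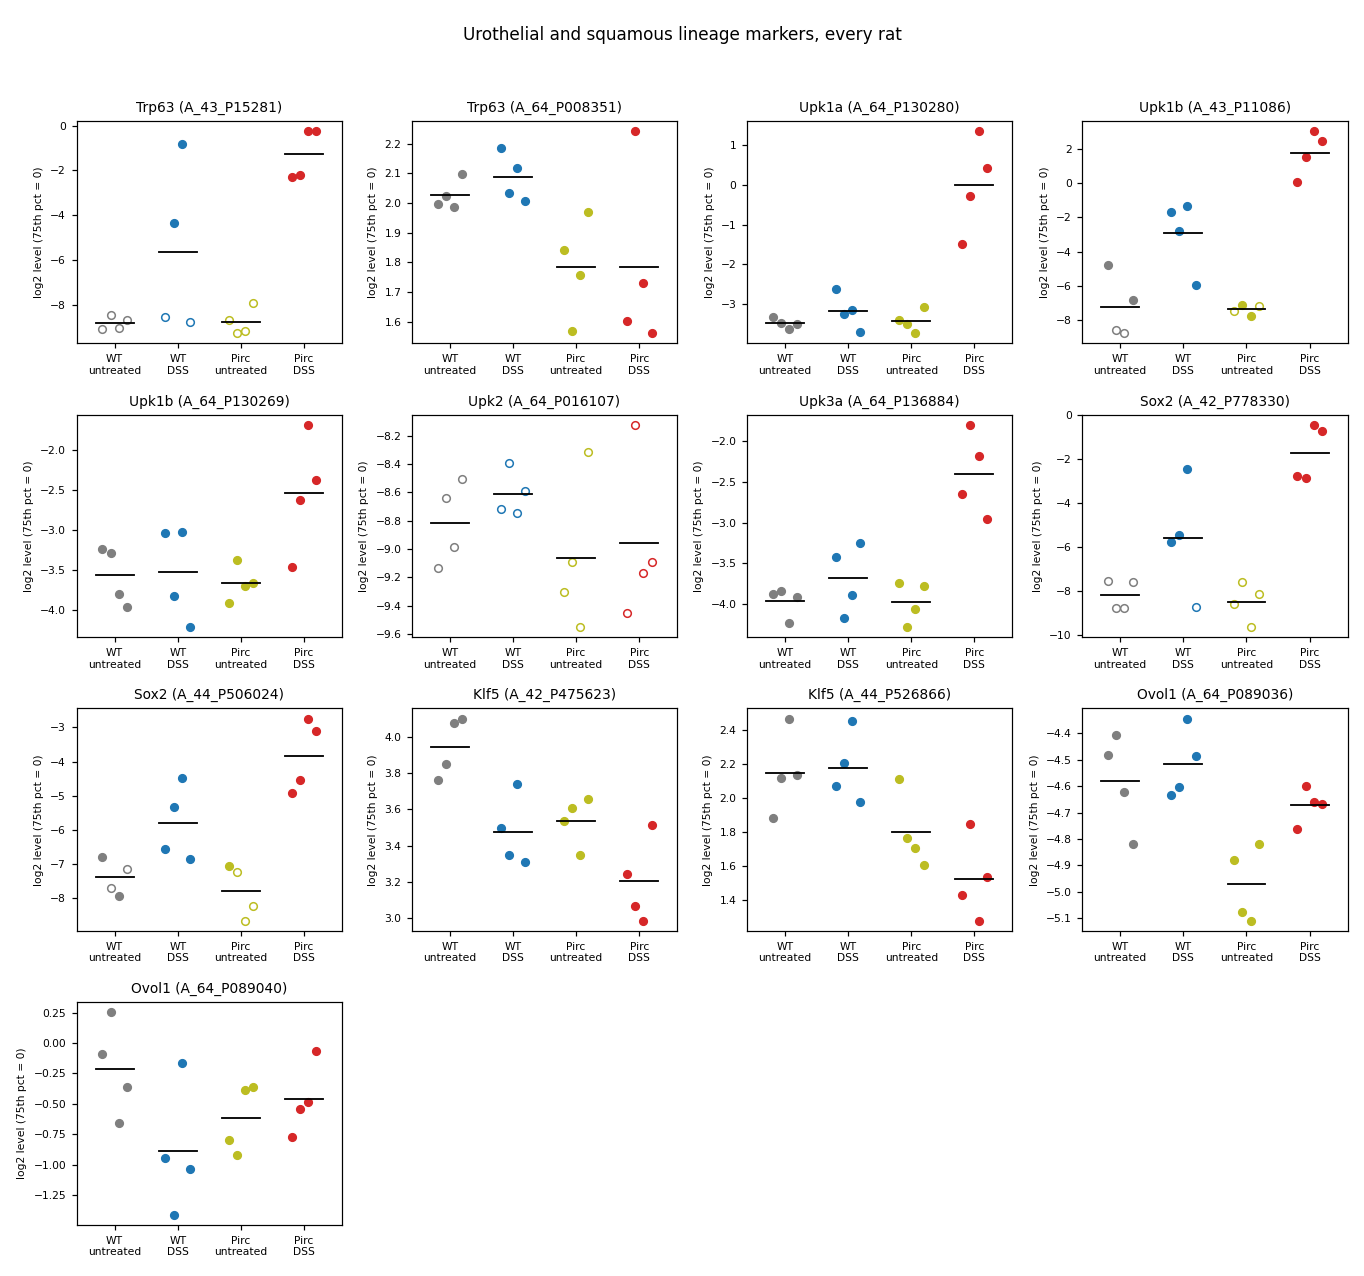
Log2 level relative to the array's 75th percentile (vertical axis) of the 13 member probes in each of the 4 groups; each point is 1 rat, filled where the probe was well above background and open where it was not, and the black bar is the group mean. The 4 DSS-treated Pirc rats stand above both untreated groups on the Upk1a and Upk3a probes, on the first Trp63 and Upk1b probes and on both Sox2 probes, and overlap the untreated Pirc rats on the flat Trp63 probe.

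By any probe, 7 of 13 member probes, from 5 genes, were called higher for DSS in Pirc rats, beside 5.51% of all probes: Trp63, Upk1a, Upk1b, Upk3a and Sox2. In wildtype rats it was 1 probe, beside 2.37% of all probes, the Upk1b probe A_43_P11086. On the 7 probes, of which Upk1b and Sox2 have 2 each, the rats of a group differed in order. Among DSS-treated Pirc rats, rat 20 was highest on 5 of them and rat 12 lowest on 5. Among DSS-treated wildtype rats, rat 22 was highest on 5 and rat 26 lowest on 6. The probes were chosen by the Pirc contrast, so these ranks are a description within each group.

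Whether DSS acted differently in Pirc and wildtype rats was tested as the difference of their DSS effects, where 0.0428% of all probes were called by limma (13 probes, with 3234 at an unadjusted p under 0.05). The 13 probes became 63 without rat 12, 35 without rat 26, 27 without rat 16 or 22, 25 without rat 24, 8 without rat 11 or 25, 31 with normexp and 22 with the common floor. By limma 0 of 8 members were called, with 5 at an unadjusted p under 0.05. The difference was 3.13 for Upk1a (95% interval 1.82 to 4.44; limma adjusted p 0.108) and 1.30 for Upk3a (adjusted p 0.227). For Upk1b on A_43_P11086, read on 4 of 8 untreated arrays, it was 4.85 (adjusted p 0.262). Sox2 on A_42_P778330 (adjusted p 0.321) and Trp63 on A_43_P15281 (adjusted p 0.426) were at background on all untreated arrays, so no size is given for them. Without DSS-treated Pirc rat 12 the Upk1a difference was 3.64 and passed (adjusted p 0.00329). With normexp background correction and all rats kept, the Upk1b difference on A_43_P11086 was 4.48 and passed as well (adjusted p 0.0360).

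Between DSS-treated Pirc and wildtype rats, Trp63 on A_43_P15281 was higher by 4.38 (limma adjusted p 0.0302), with overlapping groups. Sox2 was higher by 3.88 on A_42_P778330 (adjusted p 0.0154) and by 1.98 on A_44_P506024 (adjusted p 0.0302), also with overlap. Of the treated wildtype arrays, 2 of 4 were well above background for A_43_P15281 and 3 of 4 for A_42_P778330. So 4.38 and 3.88 are no exact sizes. The Trp63 call was lost without DSS-treated Pirc rat 20 (adjusted p 0.0903) or 24 (0.0648), or without DSS-treated wildtype rat 14 (0.0940) or 26 (0.0806). The call of Sox2 on A_44_P506024 was lost without Pirc rat 20 (0.105) or 24 (0.0719) or wildtype rat 14 (0.0875) or 26 (0.0799). On A_42_P778330 it was lost without Pirc rat 20 (0.0554). A fit of the DSS-treated groups alone ended all 3 calls, at an adjusted p of 0.141 for Trp63, 0.0861 for Sox2 on A_42_P778330 and 0.101 for Sox2 on A_44_P506024. Normexp background correction ended the last of these too (0.73, adjusted p 0.0678). Without rat 26 Upk1a was higher by 3.02 (adjusted p 0.00204) and Upk3a by 1.43 (adjusted p 0.00441). With normexp Upk3a was under 2-fold (0.85) and so was not called.

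The change with DSS in Pirc rats was fitted again within each slide and within each array row, with 2 rats in each group. On 6 of the 7 probes the Pirc groups did not overlap, so the sign in these fits was already fixed. For Upk1a the log2 change was 2.57 on slide 1 (limma adjusted p 0.0266) and 4.31 on slide 2 (adjusted p 0.0134), and 3.51 in row 1 (adjusted p 0.0572) and 3.37 in row 2 (adjusted p 0.0135). For Upk3a it was 1.79 (adjusted p 0.0493) and 1.36 (adjusted p 0.152) on the slides, and 1.49 (adjusted p 0.0363) and 1.66 (adjusted p 0.188) in the rows. The Upk1b probe A_43_P11086 passed on both slides (adjusted p 0.0217 and 0.0282) and in both rows (adjusted p 0.0319 and 0.0198). The other Upk1b probe, A_64_P130269, passed in none of these fits, with changes of 0.60 and 1.65 on the slides and 1.24 and 1.02 in the rows. For the dim probes no sizes are given. Trp63 on A_43_P15281 had an adjusted p of 0.0342 and 0.152 on the slides and 0.0870 and 0.0601 in the rows. Sox2 on A_42_P778330 had 0.00718 and 0.0965, then 0.0329 and 0.0602. Sox2 on A_44_P506024 had 0.0397 and 0.0255, then 0.0641 and 0.0482. Of the 7 probes only A_43_P11086 of Upk1b passed in all 4 of these smaller fits. Over all probes these fits called 1707 and 371 on the slides and 1813 and 642 in the rows. With 2 rats a group and such different counts, passing does not rank the probes.

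Further genes of these epithelia were read from lists of markers. For DSS in Pirc rats their counts stand beside 5.51% of all probes called higher and 1.95% lower. For DSS in wildtype rats these shares were 2.37% and 0.402%. An unadjusted limma p under 0.05 was found for 8244 of 30367 probes for DSS in Pirc rats and for 5106 in wildtype rats. The lists were written with earlier results of these data known, so their counts beside these shares are a description. Of 10 measured further urothelial markers, 4 were called higher and 0 lower by limma for DSS in Pirc rats, with 4 at an unadjusted p under 0.05 and a median log2 change of 0.28. The 4 were Krt23, an acidic keratin, at 6.20 (adjusted p 0.000113), Gata3, a urothelial transcription factor, at 2.29 (adjusted p 0.000822), Krt7, a keratin of simple and transitional epithelia, at 1.82 (adjusted p 0.00142), and the uroplakin-like Upk3bl1 at 1.73 (adjusted p 0.00564). Gata3 was well above background on 3 of 4 treated Pirc arrays, all but rat 12, so its 2.29 is no exact size. Krt20, which marks umbrella cells but also the colon's own surface cells, differed by 0.03 (adjusted p 0.965). Foxa1, Pparg, Krt19, Shh and Slc14a1, chosen for mention after their values were seen, were not called either. In wildtype rats 1 of the 10 was called higher, Gata3 (adjusted p 0.0496), but its probe was well above background on 0 of 4 untreated and 1 of 4 treated arrays, so no size is given. The wildtype median was 0.38, with 3 of the 10 at an unadjusted p under 0.05. The count was 0 with quantile normalization, normexp and the common floor. It was 2 without rat 12 or 26, 1 without rat 24 and 0 without any other rat. Upk3b had no matched probe.

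Of 18 measured genes of the basal layer, 10 were called higher and 0 lower by limma for DSS in Pirc rats, with 13 at an unadjusted p under 0.05 and a median of 1.40. Krt17, a keratin of activated basal cells, rose by 9.36 (adjusted p 0.000479), or 617-fold with untreated values raised to the array's own floor. Trim29, a basal-cell protein, rose by 7.76 (adjusted p 0.000962), or 186-fold with that floor, and the basal keratin Krt15 by 6.14 (adjusted p 0.00176). Krt14 rose by 5.84 (adjusted p 0.00287) and Krt5 by 5.05 (adjusted p 0.00285). In wildtype rats 3 of 18 were called higher, Krt17 among them (adjusted p 0.0275), with 11 at an unadjusted p under 0.05 and a median of 1.08. The Krt17 level of rat 26, -7.76, was not well above background, so no size is given. The wildtype count was 0 with normexp and 5 of 17 with a filter on dim probes. In the same rats Krt5 differed by 2.27 (adjusted p 0.237) and Krt14 by 3.03 (adjusted p 0.164). The Krt5 levels of the treated wildtype rats were -4.26, -1.92, 0.82 and -5.05, and of the treated Pirc rats -1.11, -0.86, 1.26 and 1.31. Rat 22 lay within the range of the treated Pirc rats, and rat 26 was the lowest of the treated. Without rat 26 the wildtype count was 6 of 18; it was 1 without rat 13 and 0 without rat 14, 17, 18, 21 or 25.

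The layers above were read from 19 measured genes of non-keratinised squamous mucosa, as in the oesophagus. For DSS in Pirc rats 15 were called higher and 2 lower, with 18 at an unadjusted p under 0.05 and a median of 5.32. Krt13 and Krt4 are the keratin pair of those layers. Krt13, well above background on 3 of 4 untreated Pirc arrays, rose by 10.52 (limma adjusted p 0.000925) and Krt4 by 6.66 (adjusted p 0.000378). Ly6d, a surface protein of squamous cells, rose by 8.63 (adjusted p 0.000548), and the injury keratins Krt6c and Krt16 by 8.25 (adjusted p 0.000791) and 7.40 (adjusted p 0.000951). The Krt16 rise is 133-fold with untreated values raised to the array's own floor. The transglutaminase Tgm3 fell by 2.07 (adjusted p 0.00204) and the keratin Krt24 fell by 1.51 (adjusted p 0.00734), against the direction of the rest. In wildtype rats 14 of the 19 had an unadjusted p under 0.05, with a median of 2.26, and 3 were called higher. Krt13 was among the 3 (adjusted p 0.0335). Its level in rat 26, -8.26, was not well above background and lay among the untreated values, so no size is given. Krt6c was higher by 5.77 (adjusted p 0.0231), while Krt4 differed by 2.73 (adjusted p 0.131). The count of 3 was 9 of 18 with the filter on dim probes and 1 of 19 with the common floor. Without rat 26 the wildtype count was 12 of 19. It was 5 without rat 12, 1 without rat 22 and 0 without rat 14, 17, 18, 21 or 25. Keratin and small proline-rich genes are close in sequence, and whether each probe reads 1 gene was not tested.

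Of 11 measured genes of keratinised epidermis, 5 were called higher and 0 lower by limma for DSS in Pirc rats, with 7 at an unadjusted p under 0.05 and a median of 0.74. Krt1, a keratin of maturing epidermis, rose by 9.80 (adjusted p 0.00261). It was well above background on 1 of 4 untreated Pirc arrays, so 9.80 is no exact size. Calml3, a calmodulin-like protein of squamous cells, rose by 8.53 (adjusted p 0.000337), or 327-fold with untreated values raised to the array's own floor. The crosslinking enzyme Tgm1 rose by 5.89 (adjusted p 0.000256). The protease Klk7, which loosens the outermost cells, rose by 3.62 (adjusted p 0.0136), or 10.3-fold with that floor. Ivl, the envelope protein involucrin, was well above background on none of the 16 arrays, like Krt2 and Casp14 (named after their values were seen), and Krt10 and Loricrin had no matched probe. In wildtype rats 6 of the 11 had an unadjusted p under 0.05, with a median of 0.79, and 3 were called higher. Krt1 was among the 3 (adjusted p 0.0461). Its level in rat 26, -8.92, was not well above background and lay among the untreated values, so no size is given. The wildtype count was 0 with quantile normalization, normexp and the common floor. It was 4 without rat 26, 1 without rat 16, 20, 23 or 24, and 0 without rat 11, 13, 14, 15, 17, 18, 19, 21, 22 or 25. The Pirc count of 5 was 3 without rat 20, with normexp and with the common floor.

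Among 20 measured further transcription factors of squamous epithelia, 7 were called higher and 0 lower by limma for DSS in Pirc rats, with 12 at an unadjusted p under 0.05 and a median of 0.32. The count was 4 with normexp, 9 without rat 12 and 8 without rat 22 or 26. Tbx1, a T-box factor of the pharynx and its derivatives, rose by 3.63 (adjusted p 0.000356). This was 10.3-fold with untreated values raised to the array's own floor. Elf5, an ETS factor of glandular and squamous epithelia, rose by 2.85 (adjusted p 0.0119), Prdm1, a transcriptional repressor of maturing epidermal cells, by 2.37 (adjusted p 0.00904), and Hopx, a homeodomain-only protein of maturing keratinocytes, by 2.15 (adjusted p 0.000505). Tbx1 and Prdm1 were also the 2 of 20 called in wildtype rats. Tbx1 was 7.44-fold higher with that floor (adjusted p 0.00475) and Prdm1 higher by 2.23 (adjusted p 0.0342). The wildtype median was 0.25, with 4 of the 20 at an unadjusted p under 0.05. The wildtype count was 0 with normexp, 1 with quantile normalization and the common floor, and 1 without rat 13, 14, 17, 18, 22 or 25. Tbx1 levels in treated wildtype rats were -5.06, -5.26, -5.76 and -4.96, so rat 26 was not low on this gene. Hopx differed by -0.05 with DSS in wildtype rats, and its difference of DSS effects was 2.20 (adjusted p 0.113).

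**Figure D2:**
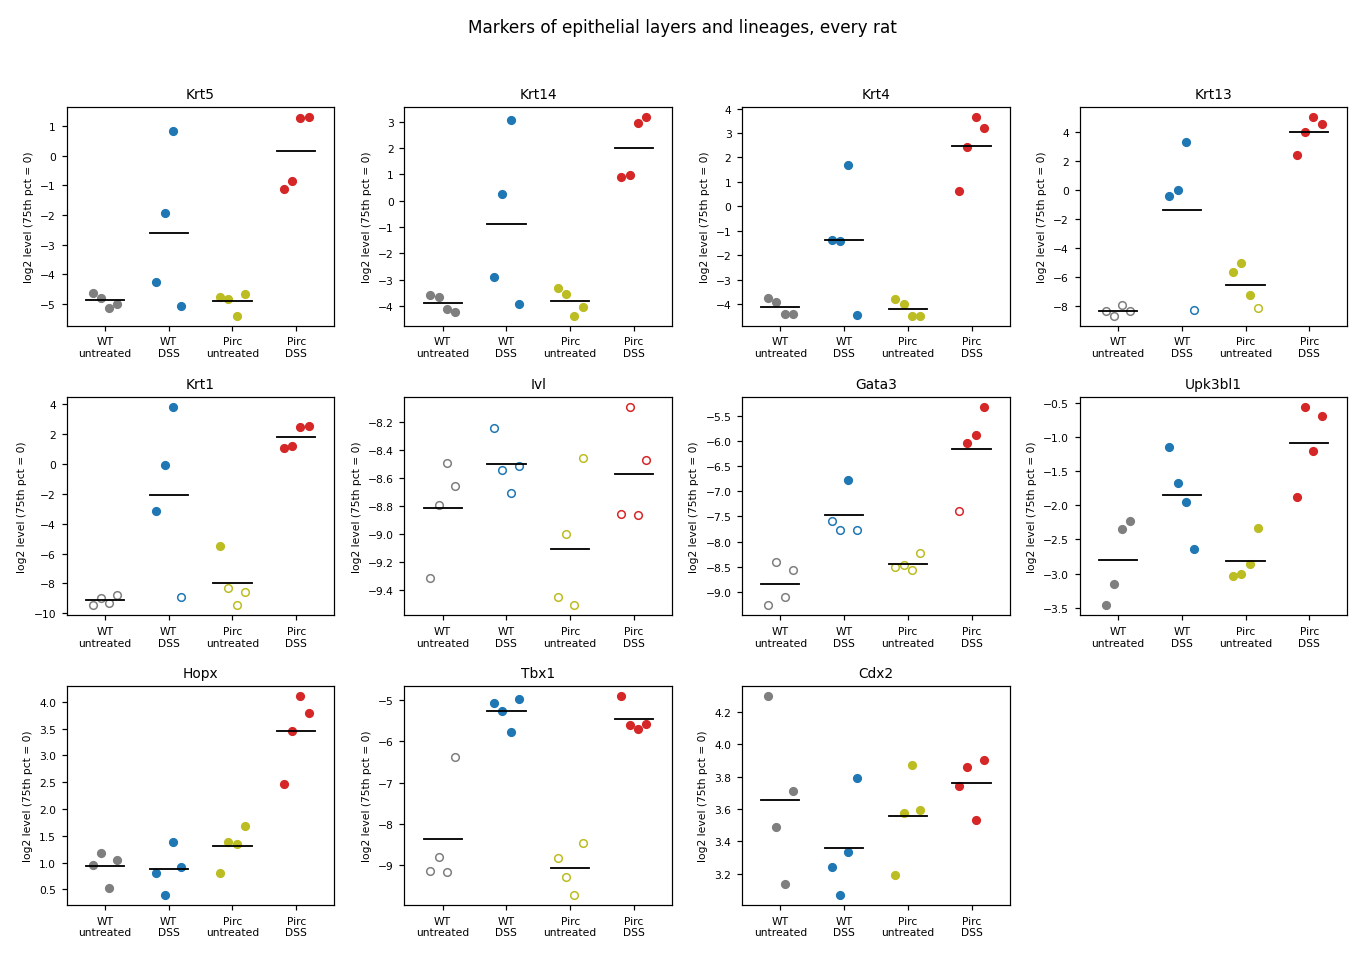
Log2 level relative to the array's 75th percentile (vertical axis) of 11 marker genes of stratified and colonic epithelium in the 4 groups; each point is 1 rat, filled where the probe was well above background, and the black bar is the group mean. Krt5, Krt14, Krt4, Krt13 and Krt1 are high in the 4 DSS-treated Pirc rats and spread widely over the 4 DSS-treated wildtype rats, while Cdx2, not called, differs by 0.20 with DSS in Pirc rats.

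Lists of other tissues were read beside these, against 5.51% of all probes called higher and 1.95% lower for DSS in Pirc rats. Of the 22 colonic markers, 1 was called higher, the chloride-channel regulator Clca4 at 1.67 (limma adjusted p 0.00676), and 2 lower for DSS in Pirc rats: Clca1, from goblet cells, fell by 2.07 (adjusted p 0.00325) and Slc26a3, the anion exchanger of surface cells, fell by 1.72 (adjusted p 0.00268). Their median change was 0.00. The intestinal transcription factor Cdx2 differed by 0.20 (adjusted p 0.663). In wildtype rats, where 2.37% of all probes were called higher and 0.402% lower, 1 of the 22 was called higher. It was Clca4, at 1.76 (adjusted p 0.0157), and the count was 0 without rat 14 or 17. Among 12 hair and sebaceous genes 1 rose (Krt31, 1.59, adjusted p 0.0303) and 1 fell (Krt85, log2 change -2.10, adjusted p 0.0236), with a median of 0.26; the count of rises was 0 without rat 11, 15, 19, 20 or 24 and 2 without rat 12 or 23, and 0 with quantile normalization and normexp. Of 10 stomach genes 2 were called higher, with a median of 0.63. Tff1 rose by 2.52 (adjusted p 0.0157). Gkn2 was 2.85-fold higher with untreated values raised to the array's own floor (adjusted p 0.00400). The count was 1 without rat 19 or 20, with normexp and with the common floor, 1 of 5 with the filter on dim probes, and 3 without rat 12, 14, 15, 22 or 23. Among 11 genes of enteric glia and neurons Uchl1 rose by 2.21 (adjusted p 0.00242) and Ret fell by 1.26 (adjusted p 0.00844), with a median of 0.04, and the glial factor Sox10 differed by -0.07 (adjusted p 0.906). By limma 0 of 9 male accessory gland genes passed, 1 had an unadjusted p under 0.05 (beside 8244 of 30367 probes), and the list had a median of 0.10.

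The summed level of each list, on the unlogged scale relative to the array's 75th percentile, was compared by group medians. Signals of different probes are not on a common scale of RNA. The sums, the brightest genes and their shares thus describe signal, and they do not rank genes by RNA. For the suprabasal mucosa list it was 45.7 in untreated wildtype, 79.5 in DSS-treated wildtype, 35.9 in untreated Pirc and 173 in DSS-treated Pirc rats. The keratinised epidermis list gave 0.544, 1.58, 0.550 and 7.71 in that order. Single rats departed from those medians: DSS-treated wildtype rat 22 had 17.6 on the epidermis list, above all 4 DSS-treated Pirc rats (3.60 to 11.6), and 156 on the suprabasal list, within their range (82.4 to 301). Krt1 alone made up 82.2% of the epidermis sum in rat 22 and 41.1 to 60.2% in treated Pirc rats, while Lce1m made up 72.3 to 78.8% in untreated rats. On the suprabasal list Tgm3 or Emp1 was the brightest gene in untreated rats, with up to 57.0% of the sum. The basal list gave 85.4, 136, 71.2 and 105, and the further urothelial list 191, 264, 206 and 210, but much of each sum came from 1 gene: Itgb4, the integrin subunit of basal attachment that colonic epithelium also makes, was the brightest basal gene on 15 of 16 arrays (47.8 to 58.2% of the sum in DSS-treated wildtype rats, and 38.0, 40.3 and 31.4% in DSS-treated Pirc rats 12, 16 and 24, with Perp at 25.99% in rat 20), and Krt19 or Krt20, keratins of colonic epithelium too, the brightest urothelial gene on all 16 (49.1 to 50.8% in DSS-treated wildtype and 48.5 to 51.3% in DSS-treated Pirc rats). The members gave 20.8, 15.8, 15.97 and 15.2, with Klf5 the brightest on all 16 arrays, the further transcription factors 122, 101, 106.8 and 119, and hair and sebaceous genes 0.583, 0.616, 0.690 and 0.891. The colonic list gave 674, 727, 657 and 620, with Lgals4 its brightest probe. Stomach genes gave 1.57, 2.42, 1.93 and 3.44, glia and neurons 0.499, 0.544, 0.388 and 0.422 with Erbb3 brightest, and male accessory glands 0.206, 0.222, 0.203 and 0.165. The part of these tissues in the members' changes was not tested.

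Between DSS-treated Pirc and wildtype rats, 3.1% of all probes were called higher and 2.37% lower, and 9518 of 30367 had an unadjusted limma p under 0.05. There 4 of 18 basal genes were called higher and 1 lower. Of 19 suprabasal genes 9 were called higher and 1 lower (2 lower without rat 26). Also called higher were 2 of 11 epidermal genes, 3 of 10 further urothelial genes and 3 of 20 transcription factors. Of 22 colonic markers 1 was called higher (2 without rat 26) and 2 lower, with 10 at an unadjusted p under 0.05. Krt23 was higher by 3.86 (limma adjusted p 0.00274), Krt4 by 3.87 (adjusted p 0.0115), Krt13 by 5.34 (adjusted p 0.0406) and Hopx by 2.58 (adjusted p 0.000362). Krt1 differed by 3.91 (adjusted p 0.162). Rat 26 was not well above background on Krt13 or Krt1, so neither size is exact. The counts moved with single rats: the basal count was 1 without rat 18, 20 or 26, 2 without rat 12 or 24 and 9 without rat 22. The suprabasal count was 2 without rat 20, 4 without rat 14 or 24, 5 without rat 18 or 26 and 13 without rat 22. The epidermal count was 1 without rat 14, 20 or 24 and 4 without rat 22. The transcription factor count was 3 without rat 12, 16, 22 or 23 and between 1 and 2 without any other. With normexp or the common floor the basal count was 2, and with these or quantile normalization the transcription factor count was 1. For the difference of DSS effects 0 genes of any list were called by limma. At an unadjusted p under 0.05, where 3234 of 30367 probes stood, were 9 suprabasal, 4 basal, 4 transcription factor, 3 epidermal and 2 urothelial genes. So were 6 of 22 colonic genes, all with a negative difference, and the colonic median was -0.18. The lists of enteric glia and neurons and of male accessory glands had 1 each, and hair and sebaceous and stomach genes had 0.

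Of the 10 members, 7 had a promoter in the RefSeq table (build GRCr8), and those of the 4 called higher for DSS in Pirc rats are shown because these genes share that call. Each run is the 250 bases before the transcription start, 5′ to 3′ on the gene's own strand: Upk1a at chr1:94997581-94997830 (minus), Upk1b at chr11:75459131-75459380 (plus), Upk3a at chr7:118014540-118014789 (plus) and Sox2 at chr2:119464881-119465130 (plus). Capitals mark motif matches.
Upk1a: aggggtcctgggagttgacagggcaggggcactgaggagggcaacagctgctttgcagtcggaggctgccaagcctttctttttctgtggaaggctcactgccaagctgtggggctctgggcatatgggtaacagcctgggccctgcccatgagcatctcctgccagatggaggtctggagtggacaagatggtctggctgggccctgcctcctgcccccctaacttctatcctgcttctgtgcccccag
Upk1b: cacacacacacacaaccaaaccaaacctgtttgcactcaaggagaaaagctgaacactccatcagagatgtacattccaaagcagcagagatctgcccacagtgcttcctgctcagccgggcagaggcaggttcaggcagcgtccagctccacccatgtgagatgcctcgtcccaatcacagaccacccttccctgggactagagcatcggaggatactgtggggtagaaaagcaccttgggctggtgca
Upk3a: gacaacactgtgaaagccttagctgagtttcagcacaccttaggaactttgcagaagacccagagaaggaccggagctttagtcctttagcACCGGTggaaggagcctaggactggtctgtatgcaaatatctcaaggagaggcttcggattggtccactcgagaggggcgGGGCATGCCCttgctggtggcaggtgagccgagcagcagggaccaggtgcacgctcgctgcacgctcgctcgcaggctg
Sox2: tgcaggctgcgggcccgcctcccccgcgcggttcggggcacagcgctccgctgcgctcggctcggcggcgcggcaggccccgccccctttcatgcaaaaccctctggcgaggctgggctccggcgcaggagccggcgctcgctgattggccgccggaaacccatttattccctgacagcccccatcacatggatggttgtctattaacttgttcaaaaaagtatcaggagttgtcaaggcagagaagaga
The first motifs searched, on both strands, were AACCGGTT for grainyhead factors such as the Grhl3 product (in 0.146% of 33469 promoters of this length), CATGNNNNNNCATG for p63 (0.362%), ATTGTT for Sox factors (10.3%), CCCCACCC for Klf factors (8.47%) and CCGTTA for Ovol factors (2.39%). None of these letters stood in the 7 promoters. Searched afterwards were ACCGGT, which lies inside AACCGGTT (1.83% of promoters), CCCACC, which lies inside CCCCACCC (26.5%), AGATAA for Gata factors (10.3%) and the p53-family half-site (6.64%). Upk3a held ACCGGT with its first base 159 bases before the start and a p53-family half-site at 79 bases before it, and Grhl3 held CCCACC on the opposite strand at 42. A match is a description, and the absence of one says only that these letters are not in this window.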

How the data were processed

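Agilent one-colour arrays of 16 rats were used. The authors deposited Feature Extraction 10.7.3.1 files, whose gProcessedSignal is a background-corrected intensity in arbitrary units, not logged. Log2 was taken here, spots with outlier marks were dropped, replicate spots were averaged and the array's 75th percentile was subtracted; 25 probe values with every spot marked were kept. Of 30367 probes 18006 were matched by transcript accession to 15159 symbols in the RefSeq table (GRCr8), and 12361 were not. All probes were fitted by lmFit and eBayes (R 4.3.3, limma 3.58.1; a mean for each of 4 groups, two-sided, Benjamini-Hochberg over all probes), checked on simulated data. Members and lists were chosen with earlier results of these data known. Named genes are all members, up to 4 rises and 2 falls of each list for DSS in Pirc rats, and a short list of keratins, envelope and transcription factor genes. Alternatives were quantile normalization, normexp (offset 50), a filter on dim probes, a common floor, slide or array row as a block, marked spots kept, fits of the compared groups alone, median scaling, averaged probes, no minimum change and each rat left out. Chosen after seeing the data were fits within a slide or row, the other probe of a gene, and the lists without single rats. The number of arrays limits the precision.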

Additional observations from a re-analysis of the deposited data

How the results depend on the processing

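For DSS in Pirc rats the count of members called, 4, ran from 3 to 4 with a rat left out and was 1 and 2 within array rows 1 and 2 and 2 within slide 2. In wildtype rats the count, 0, was 0 with each rat left out and 1 with the other probe of members with 2 probes. In untreated rats it was 0 throughout. Between DSS-treated groups the count of 3 ran from 2 to 4 with a rat left out; it was 1 with normexp, 0 and 1 within slides 1 and 2, 1 and 1 within rows 1 and 2, 5 with probes averaged and 5 with the other probe. Over both genotypes the count of 2 ran from 2 to 3 with a rat left out; it was 1 with normexp, 0 within row 1, 4 with probes averaged, 4 with no minimum change and 4 with the other probe. For the difference of DSS effects 0 became 1 without DSS-treated Pirc rat 12, and Upk1b on A_43_P11086, not the probe counted, passed with normexp (4.48, adjusted p 0.0360). Fits within a slide or row, with 2 rats a group, and the other probe were chosen after seeing the data. Rats left out aside, of 290 alternative values of member changes with an adjusted p of 0.05 or less, whatever their size, 222 stayed at or under it, 68 did not and 0 changed sign. Of 740 above it, 7 came under it with the same sign. Trp63 (A_64_P008351) also came under it (adjusted p 0.0398) between DSS-treated groups when its probes were averaged. Its value turned from -0.30 to 2.04 there, since the average takes in the other probe. Over all probes 2265, 841 and 1660 were called for DSS in Pirc, DSS in wildtype and Pirc in DSS-treated rats, against 1148, 240 and 784 with normexp and 1955, 402 and 1018 in fits of the compared groups alone. The wildtype count was 550 with the common floor, and 375, 456, 446 and 503 without rats 14, 17, 18 and 21; the last count was 1024 without rat 20. The cause of the other changes was not tested. Signal limits the reading of Upk2 and Ivl, which were at background on all arrays. It also limits untreated levels of Trp63 (A_43_P15281) and Sox2 (A_42_P778330), so their changes have no exact size.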
